A study of Mus musculus with 3 samples.

Results

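GLI3 binding was examined around 6 mouse genes of the sclerotome and the growing skeleton, Pax1, Pax9, Nkx3-2 (older symbol Bapx1), Mfap2, Pthlh and Ihh, in embryonic forelimb buds at E10.5. A region belonged to this set when the summit of a listed GLI3 peak lay within 200 kb of an annotated transcription start site (TSS) of 1 of these genes in the mm10 genome. The rule took 39 of the 17149 listed peaks, and 0 of them were shared between genes. Pax1 had 11, Pax9 had 8, Mfap2 had 7, Nkx3-2 had 6, Ihh had 5 and Pthlh had 2. The closest listed summits beyond the limit lay 202.1 kb from Nkx3-2, 203.4 kb from Mfap2 and 211.8 kb from Pthlh, and the peak at Mfap2 was the only one of those 3 with a false discovery rate (FDR) under 0.05.

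The chromatin came from whole forelimb buds of embryos with 32 to 35 somites, so anterior and posterior cells were mixed. There were 3 libraries, 2 ChIP replicates and 1 input, with 2 litters pooled per reaction, on a mixed strain background. GLI3 was recovered through a FLAG tag on the endogenous Gli3 allele, while the genotype label of every library reads wild type. The study's methods name both replicates for the calling of 1 peak list, which holds no values per replicate, so no value below carries a replicate error and no difference was tested. The methods state a minimum read number per library, and the exact totals are unknown here. No expression was measured, and cell types could not be checked against their markers.

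Hedgehog (HH) ligands act on target genes through the GLI transcription factors. GLI3 is cut to a repressor where HH is absent, and in the limb bud it acts mainly as that repressor. In the embryo's trunk, HH from the notochord and floor plate induces the sclerotome, the part of the somite that forms vertebrae and ribs, and Pax1, Pax9 and Nkx3-2 are its transcription factors. In later cartilage, the HH ligand Indian hedgehog and parathyroid hormone-related protein, the product of Pthlh, form a feedback loop that paces chondrocyte maturation. Mfap2 encodes a protein of the microfibrils that surround cells in connective tissue.

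The sequences below carry the comparison between these loci, and all are plus strand, mm10 (GRCm38.p6). Capitals mark matches to the 9-base GLI consensus GACCACCCA with at most 1 mismatch, read on both strands, so that a match on the minus strand appears as TGGGTGGTC or a variant of it. Substitutions name the consensus base, its position counted from 1 at the 5′ end of GACCACCCA, and the base found. The first pair are the matches at peaks with an FDR under 0.05, both within 200 kb of Pax1. The first is the exact consensus at chr2:147188225-147188285, in an intron of Nkx2-2, and the second carries C7A at chr2:147560435-147560495, in intergenic DNA downstream of Pax1.
Nkx2-2 intron, 173658 bp upstream of Pax1: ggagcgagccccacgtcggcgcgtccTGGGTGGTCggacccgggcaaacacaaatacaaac
Pax1, 192250 bp downstream: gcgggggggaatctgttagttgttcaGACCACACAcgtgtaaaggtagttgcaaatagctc

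The next 3 matches lie at the start of Pax1 itself, within 250 bases of the summits of listed peaks that did not reach that FDR. Each has 1 mismatch, and they carry A2C (chr2:147364270-147364330), A9T (chr2:147364429-147364489) and C7A (chr2:147362543-147362603). The 9 bases of the last, GACCACACA on the minus strand, are the same as at the distal Pax1 site above.
Pax1 promoter, A2C: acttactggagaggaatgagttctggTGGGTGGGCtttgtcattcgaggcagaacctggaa
Pax1 promoter, A9T: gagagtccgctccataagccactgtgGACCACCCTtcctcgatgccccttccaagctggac
Pax1 coding exon, C7A: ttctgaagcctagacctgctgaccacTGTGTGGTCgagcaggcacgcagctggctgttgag

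The last 4 give the summit and 50 bases on either side for peaks with an FDR under 0.05 that held no such match within 250 bases of the summit, 1 each from 4 of the loci. They stand for the more frequent case among these peaks.
Pax9 intron (chr12:56697207-56697307): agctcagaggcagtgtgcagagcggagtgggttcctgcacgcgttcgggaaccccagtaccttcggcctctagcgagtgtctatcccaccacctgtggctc
Pax1, 61890 bp downstream (chr2:147430122-147430222): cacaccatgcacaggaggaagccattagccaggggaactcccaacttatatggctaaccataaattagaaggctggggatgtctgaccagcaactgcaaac
Pthlh, 163019 bp upstream (chr6:147427152-147427252): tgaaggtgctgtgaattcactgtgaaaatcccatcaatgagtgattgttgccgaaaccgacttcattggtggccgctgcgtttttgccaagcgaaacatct
Nhej1 start, 173200 bp upstream of Ihh (chr1:75124822-75124922): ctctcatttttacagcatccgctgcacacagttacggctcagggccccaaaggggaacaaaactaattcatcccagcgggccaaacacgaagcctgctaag

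Of the 39 listed peaks near the 6 genes, 9 (23.1%) had an FDR under 0.05 and are called GLI3 peaks here, against 42.5% of the whole list, which runs to an FDR of 1. They were 3 peaks at Pax1, 3 at Mfap2 and 1 each at Pax9, Pthlh and Ihh. Nkx3-2 had none. Among the other 30, the FDR was between 0.05 and 0.1 for 4 peaks, between 0.1 and 0.5 for 16, and 0.5 or above for 10. The lowest called peak among the 39 had a log2 fold enrichment over input of 2.50 and the highest of the rest 2.31, while over the whole list the lowest called value was 2.31.

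Seen by gene, 5 of the 6 had a called peak within 200 kb, beside 67.1% of 21938 protein-coding genes. Only Mfap2 had one at its promoter, defined as 2 kb before to 1 kb after a TSS, which makes 1 of 6 genes beside 18% of all. Pax1 also had promoter peaks, 3 of them, but none was called. Protein-coding genes had a median of 1 called peak within 200 kb (quartiles 0 and 3, highest 28). The 3 peaks each at Pax1 and Mfap2 equal the upper quartile, and 35.1% of genes had at least as many. Pax9, Pthlh and Ihh had 1, and Nkx3-2 was among the 32.9% of genes with 0.

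**Figure D1:**
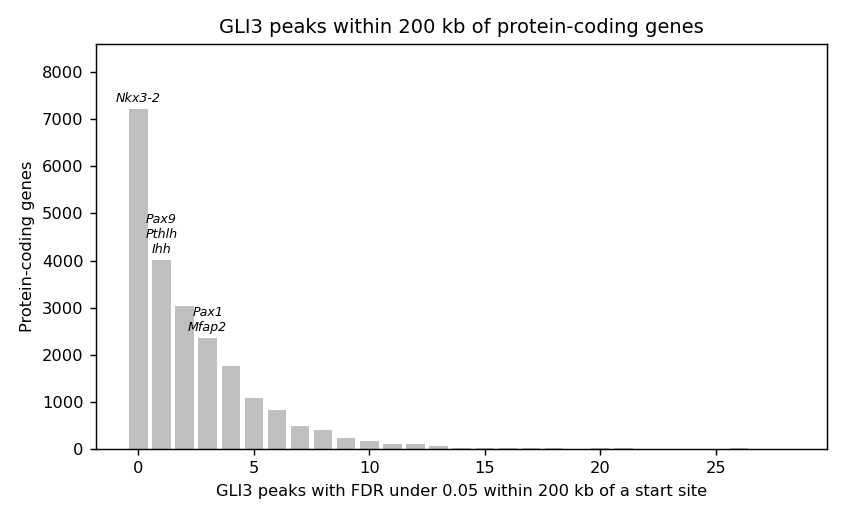
Number of protein-coding genes (vertical axis) by the number of GLI3 peaks with an FDR under 0.05 within 200 kb of a start site (horizontal axis), with the 6 genes written above their bar. Nkx3-2 sits at 0, Pax9, Pthlh and Ihh at the median of 1, and Pax1 and Mfap2 at the upper quartile of 3.

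Of the 9 called peaks, 6 were more than 100 kb from the member TSS, as were 21 of the 39 listed peaks, and the 200 kb rule itself sets how far they can lie. Within 10 kb were 2 called peaks, 1 in Pax9 and 1 at Mfap2, and 11 listed ones. A protein-coding gene other than the member had the closest TSS for 5 of the 9, and a member gene for 4. For the listed peaks as a whole, a member gene was closest for 14 of 39. At 4 of the 9 the peak lay at the promoter of a neighbour, so 5 of 9 were at some protein-coding promoter, beside 55.9% of all called peaks. The median log2 fold enrichment of the 9 was 2.77 (2.50 to 3.64), beside 2.69 for all called peaks (quartiles 2.47 and 3.06), and 2 of the 9 ranked within the first 1000 of the list.

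**Figure D2:**
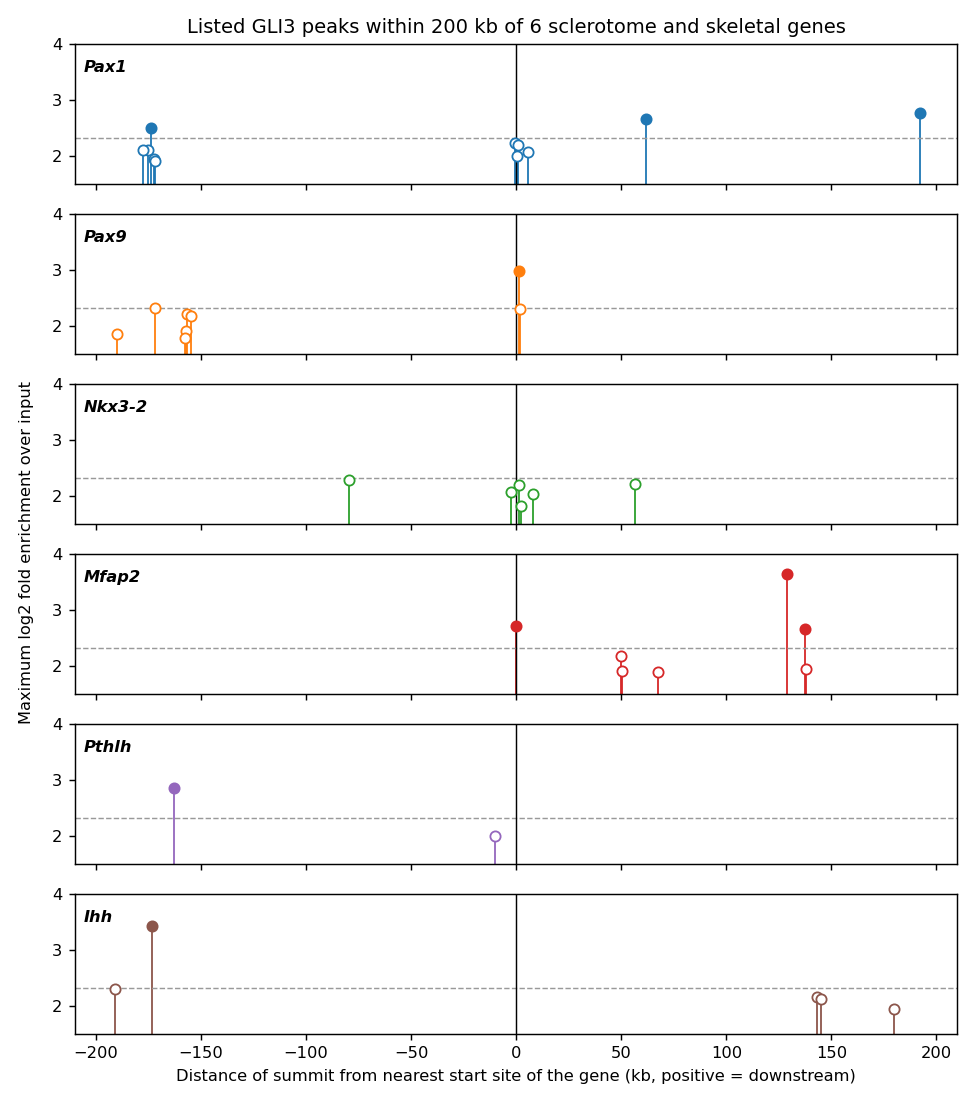
Maximum log2 fold enrichment over input of each listed peak (vertical axis) against the distance of its summit from the nearest start site of the gene in kb (horizontal axis, positive downstream), 1 panel per gene. Filled points are the 9 peaks with an FDR under 0.05, open points the other 30, and the dashed line is the lowest value of a called peak in the list. Filled points at the gene itself are seen only for Pax9 and Mfap2, and Nkx3-2 has open points alone.

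Pax1, on chromosome 2 (147361925 to 147393295, plus strand), encodes a paired-box factor needed for the ventral sclerotome and the vertebral bodies. Its highest-ranked peak lay 192250 bp downstream at chr2:147560450-147561049, in intergenic DNA, with a log2 fold enrichment of 2.77, an FDR of 0.000315 and rank 3165. The next, 61890 bp downstream at chr2:147429900-147430249, was also intergenic and reached 2.65 (FDR 0.002284, rank 3936). Pax1 was the closest protein-coding gene to both. The distal one held the C7A match printed above, 67 bp from the summit, and the one at 61890 bp held none. The next called peak beyond the limit lay 324 kb from Pax1, with Pax1 again the closest protein-coding gene, and reached 2.88 at rank 2544.

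The third called peak of the Pax1 range belonged to another gene by position. It lay 173658 bp upstream of Pax1 at chr2:147188150-147188399, in an intron of Nkx2-2 and 1863 bp from an Nkx2-2 TSS. Nkx2-2 is the transcription factor that HH induces in the ventral neural tube. The peak was the lowest of the 9, with a log2 fold enrichment of 2.50 (FDR 0.011402, rank 5226), yet it held the only exact consensus among all 39 peaks, 12 bp from the summit. Exact matches were found at 2.84% of called and 2.17% of listed peaks. Another 4 listed peaks in and around Nkx2-2 were not called, with log2 fold enrichments from 1.90 to 2.10.

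At the start of Pax1 the list held 3 promoter peaks, none of them called. The peak 512 bp upstream of a TSS reached 2.23 (FDR 0.132755, rank 8513) and held the A9T match 23 bp from the summit, while the A2C match lay outside the peak, 182 bp from its summit. The peak 607 bp downstream of the first TSS, in a coding exon, reached 2.19 (FDR 0.132966, rank 9129) and held the C7A match 41 bp from the summit. A peak in an intron 358 bp from a TSS reached 1.99, and one in the 3′ UTR reached 2.06, both without a match. Thus Pax1 had 4 listed peaks within 10 kb and 0 called.

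Pax9, on chromosome 12 (56691767 to 56712822, plus strand), is the closest relative of Pax1, and is known in the limb for its expression in the anterior mesenchyme and its role in the most anterior digit. It was the only one of the 3 sclerotome factors with a called peak in the gene. That peak, in an intron 1528 bp downstream of a TSS at chr12:56697100-56697549, reached a log2 fold enrichment of 2.98 with an FDR listed as 0 and rank 2135. It was the third-highest of the 9 peaks by enrichment, while its Poisson value was the third-lowest, a −log10 p of 14.5 beside a median of 17.5 over the 9. A second peak next to it, 1993 bp from a TSS, reached 2.31 with an FDR of 0.070419 and was not called. Neither held a GLI match.

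The other 6 listed peaks of the Pax9 range lay between 154995 and 190080 bp upstream, in and near Nkx2-1, a transcription factor of lung, thyroid and forebrain. None was called. Their log2 fold enrichments ran from 1.79 to 2.31, the highest in a non-coding gene next to Nkx2-1 with an FDR of 0.070419. Nkx2-9, a neural tube HH target between Pax9 and Nkx2-1, had the Pax9 intron peak as its own highest-ranked peak, at 84 kb. The next called peak beyond the limit was 257 kb from Pax9, nearest to the start of Slc25a21, and reached 2.58.

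Nkx3-2, on chromosome 5 (41761483 to 41764501, minus strand), encodes a homeobox repressor that acts downstream of Pax1 and Pax9 in the sclerotome and holds back chondrocyte maturation. It had 6 listed peaks and 0 called. Both strongest were at the promoters of neighbours. One was 22 bp from the start of Bod1l (2.29, FDR 0.070419, rank 7665), and the other 114 bp from the start of Rab28 (2.21, FDR 0.132792). The remaining 4 were within 10 kb of Nkx3-2. An intronic peak 1449 bp downstream of its TSS reached 2.19, a peak 2691 bp upstream reached 2.06, one 7969 bp downstream reached 2.03 and one in a coding exon reached 1.81. None of the 6 held a GLI match, and the closest called peak of any kind was 778 kb away.

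Pax1 and Nkx3-2 thus had the same arrangement, 4 listed and 0 called peaks within 10 kb. This was noticed after the values were seen. Of 21938 protein-coding genes, 635 (2.89%) had at least 4 listed peaks within 10 kb, and 52 (0.237%) had at least 4 with none called. At the threshold used here these peaks are not GLI3 peaks. With an FDR between 0.132755 and 1, and without values for each replicate, they were not separated from background at that threshold. Their −log10 Poisson p ran from 5.26 to 8.82, beside a median of 16.6 over all called peaks.

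Mfap2, on chromosome 4 (141010418 to 141015984, plus strand), had the only called promoter peak of the 6 genes. Its summit lay in the 5′ UTR, 23 bp downstream of a TSS, in the peak at chr4:141010550-141011149, and reached a log2 fold enrichment of 2.72 (FDR 0.001134, rank 3469). Its −log10 Poisson p of 12.8 was the lowest of the 9. No GLI match was found around it. It was also the only listed peak of the range for which Mfap2 was the closest protein-coding gene.

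The remaining 6 peaks of the Mfap2 range lay at the promoters of other genes in this gene-dense region, which holds 10 protein-coding neighbours. The highest of all 39 peaks was among them, 40 bp from the start of Szrd1 and 129043 bp from Mfap2 at chr4:141139500-141139849, with a log2 fold enrichment of 3.64, an FDR listed as 0 and rank 575. The third called peak was 25 bp from the start of Fbxo42, an F-box gene, and reached 2.65 (FDR 0.002284). The Fbxo42 promoter had a second listed peak, not called, at 1.94, with an A9T match 68 bp from its summit. Peaks at Crocc (2.17 and 1.91) and Necap2 (1.89) were not called.

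Pthlh, on chromosome 6 (147252101 to 147264183, minus strand), had 2 listed peaks. The called one lay 163019 bp upstream at chr6:147426900-147427349, in intergenic DNA, with a log2 fold enrichment of 2.85, an FDR listed as 0 and rank 2705. The closest protein-coding start was that of Ccdc91, 48626 bp away. Of the 4 called peaks in the set that lay at no promoter, it had the highest −log10 Poisson p, 30.3. The other peak, 10174 bp upstream of Pthlh, reached 1.99 with an FDR of 0.460751. Neither held a GLI match, and the next called peak was 687 kb away.

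Ihh, on chromosome 1 (74945315 to 74951672, minus strand), had no listed peak within 100 kb. Its only called peak, at chr1:75124600-75125249, lay 173200 bp upstream of Ihh and at the start of Nhej1, a DNA repair gene whose introns are known to hold regulatory sequences of Ihh. The log2 fold enrichment was 3.43, with an FDR listed as 0 and rank 868, and the −log10 Poisson p of 38.2 was the highest of the 39 peaks. Its summit was 328 bp from the Nhej1 start in GENCODE, where no Nhej1 transcript spans it. In the RefSeq annotation it was 354 bp from the start and fell in the first intron of Nhej1 (74967346 to 75125226). It was the only listed summit within that gene, so the rest of the Nhej1 introns held none. No GLI match was found around it.

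The 4 other listed peaks of the Ihh range were not called. A peak at the start of Cnppd1, 191025 bp upstream, reached 2.31 with an FDR of 0.070419, although its −log10 Poisson p of 21.1 was above the median of the called peaks. On the other side of Ihh were 2 intergenic peaks, 14739 and 13184 bp from the start of Wnt10a (2.17 and 2.12), and 1 at the start of Wnt6 (1.95), both genes for WNT ligands.

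**Figure D3:**
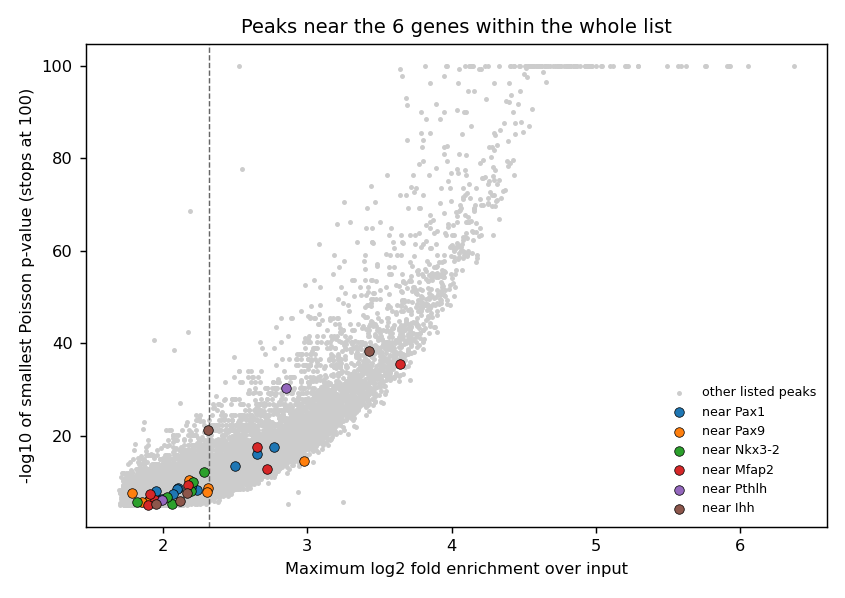
Maximum log2 fold enrichment (horizontal axis) against the −log10 of the peak's lowest Poisson p (vertical axis, stops at 100) for every listed peak (grey) and the 39 peaks near the 6 genes (coloured). The dashed line is the lowest enrichment of a called peak. The 39 lie in the lower left of the cloud, with the Szrd1 peak of the Mfap2 range (3.64) and the Nhej1 peak of the Ihh range (3.43) farthest out.

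Within 250 bases of the summit, 2 of the 9 called peaks (22.2%, 95% Wilson interval 6.32 to 54.7) had a match, beside 20.8% of all called peaks and 10.7% of 14564 windows of the same length placed 2 kb to either side of called peaks. At an FDR under 0.01 the share near the 6 genes was 12.5%. Of the 39 listed peaks, 5 had one (12.8%, 5.6 to 26.7), beside 17.9% of listed peaks. The intervals cover counting error over peaks only. There were 6 matches in all, 3 of them within 50 bp of a summit, and 5 of the 6 lay on the Pax1 range. In the 300-base RefSeq promoters (250 bases before to 50 after the start), 6.74% of 32851 entries held a match and 0 of 7 entries for the 6 genes did. That says only that these letters are not in those windows.

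The peaks resembled other called peaks in length and base composition. Their median length was 450 bp beside 400, and the median GC content around the summit 60.5% beside 58.7%. Of the 5 peaks at a promoter, those at Fbxo42, Szrd1, Mfap2 and Nhej1 had 69.3%, 68.9%, 63.7% and 61.3%, and the one at Nkx2-2 had 53.7%. Of the 4 others, the Pax9 intron peak had 60.5%, the Pax1 peaks 192250 and 61890 bp downstream had 48.5% and 42.5%, and the Pthlh peak had 43.1%, so the ranges overlapped. Among all called peaks the median was 65.3% at promoters and 49.9% elsewhere.

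Genes related to these 6, together with neural tube HH targets taken for comparison, made up 4 lists. They are given by counts, with values for some of the genes. Of 14 regulators of the sclerotome and somite, 13 (92.9%) had a called peak within 200 kb and 3 (21.4%) at the promoter. The promoter peaks were at Foxc1 (log2 fold enrichment 3.61, 56 bp from a TSS), which acts in the paraxial mesoderm, and at Sox5 (2.52) and Sox6 (2.33), which act with Sox9 in cartilage. Sox9 itself had a peak of 3.09 with a GLI match, 1.57 kb from a TSS and outside the promoter window. The highest-ranked peaks of this list were near other genes, at rank 5 for Foxc2 (5.91, 185 kb away and closest to Foxl1) and rank 23 for Uncx (4.96, 181 kb away and closest to Micall2). Meox2 had no called peak.

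Of 17 genes of the IHH and PTHLH growth plate axis, 15 (88.2%) had a called peak and 8 (47.1%) a called promoter peak. Ptch1, the HH receptor, had the second peak of the whole list (6.05, with a GLI match), and Gli1 had rank 7 (5.76, with a match). Pth1r, the receptor of the Pthlh product, had a promoter peak of 3.89 at rank 322, 42 bp from a TSS, while Pthlh had none. Promoter peaks were also called at Gli2 (3.51), Smo (3.09), Gli3 (2.82), Fgfr3 (2.71) and Col2a1 (2.36). Col10a1, the collagen of hypertrophic chondrocytes, had no listed peak, and Dlx5 had 13 listed and 0 called.

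All 6 microfibril and elastic fibre genes had a called peak and 4 (66.7%) had one at the promoter. These were Mfap4 (4.02), Fbn2 (3.55), Eln (2.81) and Fbln5 (2.41), so the Mfap2 promoter peak at 2.72 was lower than 3 of the 4. None of the 4 had a GLI match at its highest-ranked peak, as at Mfap2. Of the list genes without a promoter peak, Fbn1 had a match there (3.29, 69.7 kb from a TSS) and Mfap5 had none. Of 6 neural tube HH targets, 5 (83.3%) had a called peak and 3 (50%) a promoter peak, at Nkx2-2 (2.50), Olig2 (2.46) and Nkx6-1 (2.39). The Nkx2-2 promoter peak is the one already counted in the Pax1 range. The only called peak of Nkx2-9 is the Pax9 intron peak, so the lists and the 6 genes share peaks. Over the 42 genes of the 4 lists counted once, 38 (90.5%) had a called peak and 18 (42.9%) a called promoter peak, beside the 67.1% and 18% of all protein-coding genes given above. The lists were drawn up with earlier results of these data known, so the shares describe these lists and nothing was tested.

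**Figure D4:**
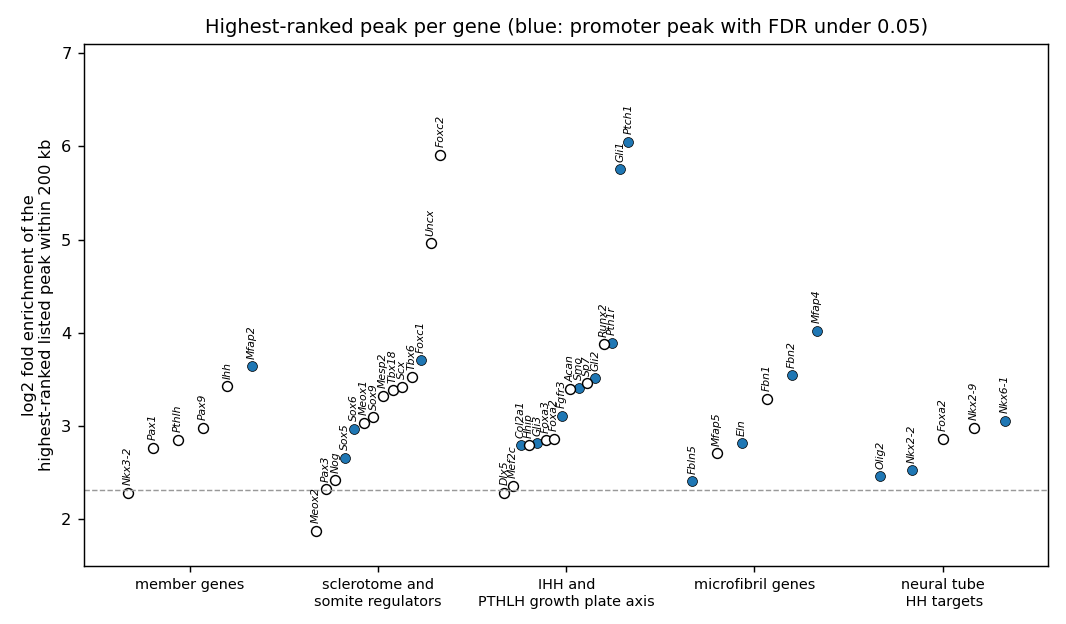
Log2 fold enrichment of the highest-ranked listed peak within 200 kb (vertical axis) for the 6 genes and the 4 gene lists (horizontal groups, 1 point per gene). Blue points are genes with a promoter peak at an FDR under 0.05, open points are genes without one, the dashed line is the lowest enrichment of a called peak, and Col10a1 and Nkx6-2 have no listed peak and no point. Ptch1 and Gli1 stand highest of the genes with a promoter peak, and of the 6 genes on the left only Mfap2 is blue.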

How the data were processed

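GLI3 ChIP-seq of mouse forelimb buds (2 ChIP replicates, 1 input) was analysed from 1 deposited peak list, attached to the record of ChIP replicate 1. The submitters' processing notes name Bowtie2 2.2.5 and mm10, and the study's methods name CisGenome and both replicates for peak calling. The list was taken as that joint call, which it does not state. Per the file headers, the deposited values for each peak are an FDR (a q-value), the maximum log2 fold enrichment over input, the maximum T statistic (a score by which the authors ranked the peaks) and the −log10 of each peak's lowest Poisson p-value, which stops at 100. These are the authors' values. The list holds no counts or coverage, and the methods state a minimum read number without the exact totals per library.

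Peaks with an FDR under 0.05 were called GLI3 peaks. Summits were assigned within 200 kb of any TSS of a member gene in GENCODE M21 (comprehensive set). A promoter peak overlapped 2 kb before to 1 kb after a TSS. The place of a peak is that of its summit. GLI matches (GACCACCCA, at most 1 mismatch, both strands) were sought in 250 bases to either side of summits in GRCm38.p6, where 0 peak ends lay beyond a chromosome, and the 5 peaks placed on no chromosome were not searched. Promoter sequences are from RefSeq, and all 6 symbols matched. Protein sequences were not used here.

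The genes named are the 6 members, the genes nearest to their 3 highest-ranked peaks, neighbours within 200 kb, genes of the lists with a called promoter peak or a high-ranked peak, and Ptch1 and Gli1. Other list genes (Meox2, Uncx, Foxc2, Sox9, Col10a1, Dlx5, Nkx6-2, Fbn1, Mfap5) and the genes next to other peaks given with a value were named after their values were seen. Some genes of the lists are not reported here. The members and lists were chosen with earlier results of these data known. The steps were tested on simulated data. Alternatives were other FDR limits, distances, promoter windows, motif windows and assignment to the nearest gene. Python 3.11.15, pandas 2.3.3, numpy 2.4.6, scipy 1.17.1 and matplotlib 3.10.9 were used.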

Additional observations from a re-analysis of the deposited data

How the results depend on the processing

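For 7 results, 6 on the peaks near the 6 genes and 1 on the 42 genes of the lists, 45 alternatives were computed, and 28 left the value within the limits set for a move while 17 did not. The 9 called peaks became 39 with every listed peak, 3 within 100 kb, 2 within 50 kb and 4 when only the nearest start site counted. The 5 genes with a called peak became 3 within 100 kb, 2 within 50 kb and 3 by nearest start site. The 1 gene with a promoter peak became 2 with every listed peak. The 22.2% of called peaks with a GLI match became 0 within 100 kb and 0 within 50 kb, since both matched peaks lie farther out. At an FDR under 0.01 the share was 12.5%, which was still within the limits set for a move. The median log2 fold enrichment of 2.77 became 2.81 at an FDR under 0.01, 2.17 with every listed peak, 2.72 within 100 kb, 2.85 within 50 kb and 2.74 by nearest start site. The 4 called peaks nearest to a member gene became 14 with every listed peak and 2 within 50 kb. Widening the distance to 500 kb brought in a peak of 4.16 at 403 kb from Pax1, near Kiz, and one of 4.17 at 326 kb from Mfap2, near Rcc2. Within 100 kb the highest-ranked peak fell from 2.77 to 2.65 for Pax1, from 3.64 to 2.72 for Mfap2 and from 2.85 to 1.99, which was not called, for Pthlh, and Ihh had none.

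The list holds no values per replicate, so leaving out each replicate was not run. No paired analysis was possible because the result comes from no test and the list has no columns per replicate. Shares over 9 called peaks are coarse, and distance does not say which gene a peak acts on.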
